A study of Mus musculus with 10 samples.

Results

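Transcripts of the endoplasmic reticulum (ER) chaperones and of the unfolded protein response were followed in mouse spleen and lymph node on Affymetrix arrays. The set named 34 genes by symbol: chaperones and folding enzymes, the stress sensors, their transcription factors, genes of ER-associated degradation, translocon subunits and targets of ATF4 and CHOP. Each gene was read from its annotated probe set, the one with the highest mean where there were several. Pdia4 and Manf had no probe set in the annotation used, so 32 genes of the 19505 measured were followed, and all 32 passed the filter on low values along with 13393 genes in all. The study asked about VAV1 changes seen in cancers, in the setting of T cell lymphoma. CD4+ T cells were transduced with oncogenic Vav1 or with GFP, placed in immunocompromised mice and examined after 6 months. The labels give the strain of all samples as C57BL/10 and the genotype as WT with oncogenic Vav1 or with GFP added. The arrays fell into Vav1 spleen (4 arrays), GFP spleen (2), Vav1 lymph node (2) and GFP lymph node (2). They came from 7 animals, and 3 of these gave both tissues. The sources used here do not name the Vav1 variant, the strain of the recipients, or whether arrays of a group came from separate transductions. The p-values therefore measure the spread between these animals and arrays.

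The ER folds and modifies proteins that enter the secretory pathway, and plasma cells are known for a large ER. When unfolded proteins build up, the membrane sensors IRE1 (gene Ern1), PERK (Eif2ak3) and ATF6 respond: IRE1 splices Xbp1 mRNA, PERK slows translation and favours the translation of ATF4, and a fragment of ATF6 enters the nucleus. The resulting factors are known to raise chaperones and degradation genes, and ATF4 and CHOP (Ddit3) act on amino acid and cell death genes. Splicing, phosphorylation and cleavage do not show in the level of a probe set, so the values below are transcript levels alone.

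Levels are on the log2 scale, as the authors deposited them after RMA, and every difference is Vav1 minus GFP unless stated. A change is a limma adjusted p under 0.05 over all genes tested. The labels call the cells CD4+ T cells but also describe the data as from the tissue, and B cell, plasma cell and myeloid transcripts were present on every array, so fewer cells of a type and less RNA per cell cannot be told apart. The 11 cycling-cell genes rose in both tissues, with a median of 2.00 in spleen and 2.37 in lymph node. B cell genes fell in the spleen, 9 of 11, and T cell genes in the lymph node, 5 of 9. Neutrophil genes rose in both tissues, 10 of 11 in each, with a median of 3.16 in spleen and 2.80 in lymph node. In the lymph node all 7 red cell genes rose (median 3.77), while all 7 fat genes (median -3.00) and all 8 genes of stroma and vessels (median -1.56) fell. The Vav1 lymph node replicates stood apart from each other: the red cell genes averaged 9.14 in replicate 1 and 11.45 in replicate 2. The median of the intronic control probe sets was 5.43 to 5.55 on the Vav1 spleen arrays, against 5.87 and 5.69 on the GFP spleen arrays, and 5.27 and 5.57 on the Vav1 lymph node arrays, against 5.46 and 5.38 on the GFP lymph node arrays. The part of these differences in the results below was not tested, except where a value with this control as a covariate is given.

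In the spleen, ER chaperone transcripts were higher with oncogenic Vav1 across the group. Of the stress sensors none passed as higher, but 3 genes are too few to set against the share of all genes. Of the 32 genes, 19 rose, against 17.1% of all genes tested, and 1 fell, against 9.77% (26.8% in either direction). The median difference of the 32 was 0.55, and that of all genes tested was 0.0019. In 25 of the 32, every Vav1 spleen array lay above both GFP spleen arrays, which held for 30.3% of all genes tested. Creld2, Pdia3 and Asns rose by at least 2-fold, as 5.6% of all genes did. The spleen count depended on the 2 GFP arrays. Without GFP spleen replicate 1, 5 of the 32 rose (Pdia3, Creld2, Xbp1, Derl3 and Ssr1) while the median was 0.50, and 5.74% of all genes did so; without GFP spleen replicate 2, 12 rose. With the intronic control median as a covariate, 3 rose (Pdia3, Creld2 and Ssr1), the median was 0.30, and 4.56% of all genes rose.

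In the lymph node, 10 of the 32 rose, against 7.87% of all genes tested, and 1 fell, against 10.8% (18.7% in either direction). The median difference was 0.31, and that of all genes tested was -0.015. In 17 of the 32, both Vav1 lymph node arrays lay above both GFP lymph node arrays, which held for 24.2% of all genes. Creld2 alone rose by at least 2-fold, against 4.04% of all genes. The count was 3 without either GFP lymph node replicate, 11 without Vav1 lymph node replicate 1 and 17 without Vav1 lymph node replicate 2, where 2.87% and 2.86%, 14.6% and 11% of all genes rose. With the lymph node arrays fitted alone it was 1, against 0.851% of all genes. Hspa5, Hsp90b1, Sdf2l1, Canx, Creld2, Xbp1, Derl3 and Ssr1 rose in both tissues, 8 of 32, against 4.65% of all genes. That a gene passed in 1 tissue and not in the other does not show a difference between tissues, which is tested further on.

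**Figure D1:**
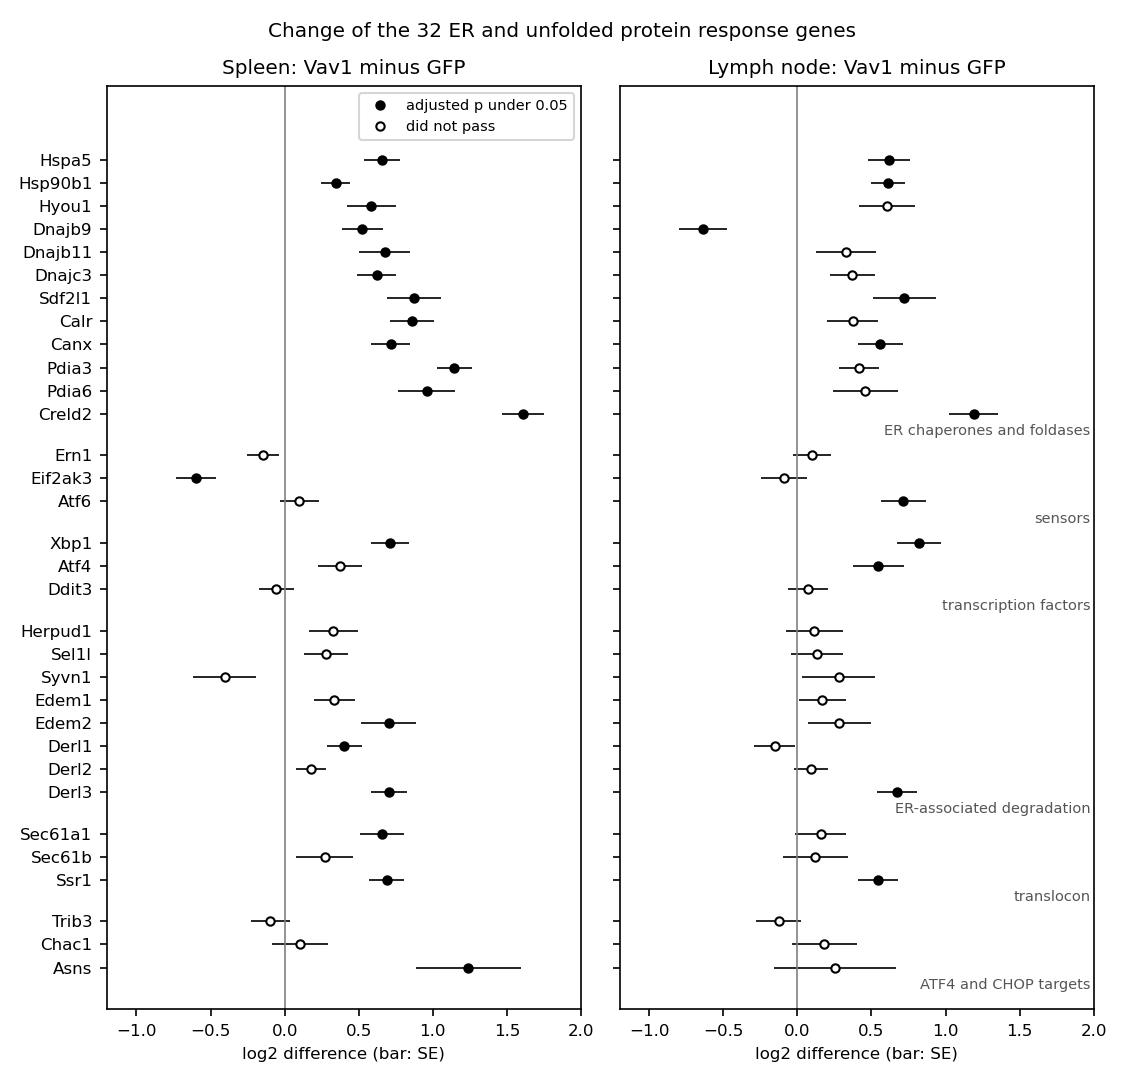
Log2 difference, Vav1 minus GFP, of the 32 genes in spleen (left) and lymph node (right), grouped by role. Points are limma estimates and bars their standard error, and filled points have an adjusted p under 0.05: 19 higher and 1 lower in spleen, 10 higher and 1 lower in lymph node.

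All 12 measured chaperones and folding enzymes rose in the spleen, against 17.1% of all genes, with a median difference of 0.70. In each of them the Vav1 arrays lay above the GFP arrays, as in 30.3% of all genes. In the lymph node 5 of the 12 rose and 1 fell, against 7.87% and 10.8% of all genes, with a median of 0.51. Creld2, an ER-resident protein known to be induced by ER stress, had the largest difference of the set in each tissue. Its values were 9.15, 9.23, 9.11 and 9.10 on the Vav1 spleen arrays, against 7.30 and 7.78 on the GFP spleen arrays. Creld2 in lymph node was at 8.99 and 8.81 on the Vav1 arrays, against 7.64 and 7.77 on the GFP arrays. The groups did not overlap, and the highest GFP array of either tissue lay about a log2 unit below the lowest Vav1 array. The difference was 1.61 in spleen (SE 0.14, adjusted p = 0.00015), or 3.05-fold, and 1.19 in lymph node (SE 0.17, adjusted p = 0.00082), or 2.28-fold. Both calls held under all 22 alternatives run for them.

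Pdia3, a thiol oxidoreductase that works with the lectin chaperones, was at 11.18, 11.05, 10.92 and 11.08 on the Vav1 spleen arrays, against 9.81 and 10.02 on the GFP spleen arrays. Its lymph node values were 10.85 and 10.70 with Vav1, against 10.44 and 10.27 with GFP. The Vav1 arrays were higher in each tissue, with a wide gap in spleen and a narrow one in lymph node. The difference was 1.15 in spleen (SE 0.12, adjusted p = 0.00028) and 0.42 in lymph node (SE 0.14, adjusted p = 0.058). The spleen call held under all 22 alternatives.

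Calr, the soluble lectin chaperone calreticulin, was at 12.08, 11.98, 11.86 and 12.02 on the Vav1 spleen arrays, against 11.02 and 11.24 on the GFP spleen arrays. In the lymph node, Calr was at 12.13 and 11.56 on the Vav1 arrays, against 11.47 and 11.48 on the GFP arrays. Only Vav1 lymph node replicate 1 lay well above the GFP arrays there, and the lymph node difference of 0.37 did not pass (adjusted p = 0.17), while the spleen difference of 0.86 did (SE 0.15, adjusted p = 0.0031). Canx, the membrane-bound lectin chaperone calnexin, differed by 0.72 in spleen (adjusted p = 0.0039) and 0.56 in lymph node (adjusted p = 0.028), and Pdia6, a protein disulfide isomerase, by 0.96 (adjusted p = 0.0056) and 0.46 (adjusted p = 0.19).

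Hspa5, which encodes BiP, the Hsp70 of the ER, was among the brightest members and on no array fell below percentile 98.99 of its probe sets. It was at 12.26, 12.19, 12.04 and 12.28 on the Vav1 spleen arrays, against 11.36 and 11.71 on the GFP spleen arrays, and at 12.24 and 12.08 on the Vav1 lymph node arrays, against 11.54 on each GFP lymph node array. Every Vav1 array was above every GFP array, and the difference was 0.66 in spleen (SE 0.12, adjusted p = 0.0042) and 0.62 in lymph node (SE 0.14, adjusted p = 0.013). Hsp90b1, the Hsp90 of the ER, was at 11.78, 11.78, 11.82 and 11.87 on the Vav1 spleen arrays, against 11.35 and 11.58 on the GFP spleen arrays, and at 11.77 and 11.69 on the Vav1 lymph node arrays, against 11.13 and 11.10 on the GFP lymph node arrays. No Vav1 array reached down to a GFP array of its tissue, and the difference was 0.35 in spleen (SE 0.10, adjusted p = 0.028) and 0.61 in lymph node (SE 0.11, adjusted p = 0.0045).

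The partners of BiP rose in spleen as well. Hyou1, its nucleotide exchange factor, differed by 0.59 (adjusted p = 0.026), Sdf2l1, a cofactor of ER chaperone complexes, by 0.88 (adjusted p = 0.007), and the J-domain proteins Dnajb11 and Dnajc3 by 0.68 (adjusted p = 0.017) and 0.62 (adjusted p = 0.0071). In the lymph node Sdf2l1 rose by 0.72 (adjusted p = 0.038), while Hyou1 at 0.61 (adjusted p = 0.05), Dnajb11 at 0.33 (adjusted p = 0.30) and Dnajc3 at 0.37 (adjusted p = 0.12) did not pass. Dnajb9, another J-domain partner of BiP and a known brake on IRE1, went opposite ways. It was at 8.64, 8.62, 8.80 and 8.88 on the Vav1 spleen arrays, against 8.32 and 8.10 on the GFP spleen arrays, and at 8.41 and 8.09 on the Vav1 lymph node arrays, against 8.96 and 8.82 on the GFP lymph node arrays. The Vav1 arrays were the higher ones in spleen and the lower ones in lymph node, with no overlap in either. The difference was 0.52 in spleen (SE 0.14, adjusted p = 0.02) and -0.64 in lymph node (SE 0.16, adjusted p = 0.02).

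Without GFP spleen replicate 1 a single GFP spleen array was left, so this fit cannot show that the calls rested on that replicate. The 10 chaperones other than Pdia3 and Creld2 kept their direction in it, at 0.23 to 0.83. Replicate 1 was the higher GFP spleen array for Hyou1, Dnajb9 and Dnajb11 (9.68, 8.32 and 7.98, against 9.61, 8.10 and 7.78). Leaving it out therefore raised their differences. The intronic control was lower on every Vav1 spleen array (5.43 to 5.55) than on the GFP spleen arrays (5.69 and 5.87). A fit with it as a covariate therefore cannot separate it well from the construct. With this covariate those 10 ranged from 0.17 to 0.97, Dnajb11 being the highest, and missed the threshold (adjusted p from 0.052 to 0.65). Without GFP spleen replicate 2, Hyou1, Dnajb9 and Dnajb11 did not pass (adjusted p from 0.12 to 0.15). Hsp90b1 and Hyou1 also missed it without Vav1 spleen replicate 1 or 4 (adjusted p from 0.051 to 0.067), and Hsp90b1 without Vav1 spleen replicate 2 (adjusted p = 0.06) or when either GFP lymph node array was left out (adjusted p = 0.053 and 0.052), which enter through the shared spread. Of the lymph node calls, Hspa5, Dnajb9, Sdf2l1 and Canx did not pass without GFP replicate 1 (adjusted p from 0.092 to 0.15), nor did these and Hsp90b1 without GFP replicate 2 (adjusted p from 0.051 to 0.22). Sdf2l1 did not pass there without Vav1 lymph node replicate 1 (0.36, adjusted p = 0.10) or without any 1 of GFP spleen replicates 1 and 2 and Vav1 spleen replicates 1, 2 and 4 (adjusted p from 0.054 to 0.062). Dnajb9 and Canx did not pass without Vav1 lymph node replicate 2 (adjusted p from 0.053 to 0.07), while Hyou1, Calr and Pdia3 did (0.49 to 0.95, adjusted p from 0.00015 to 0.024), and Dnajb11 passed without Vav1 lymph node replicate 1 (0.60, adjusted p = 0.024).

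**Figure D2:**
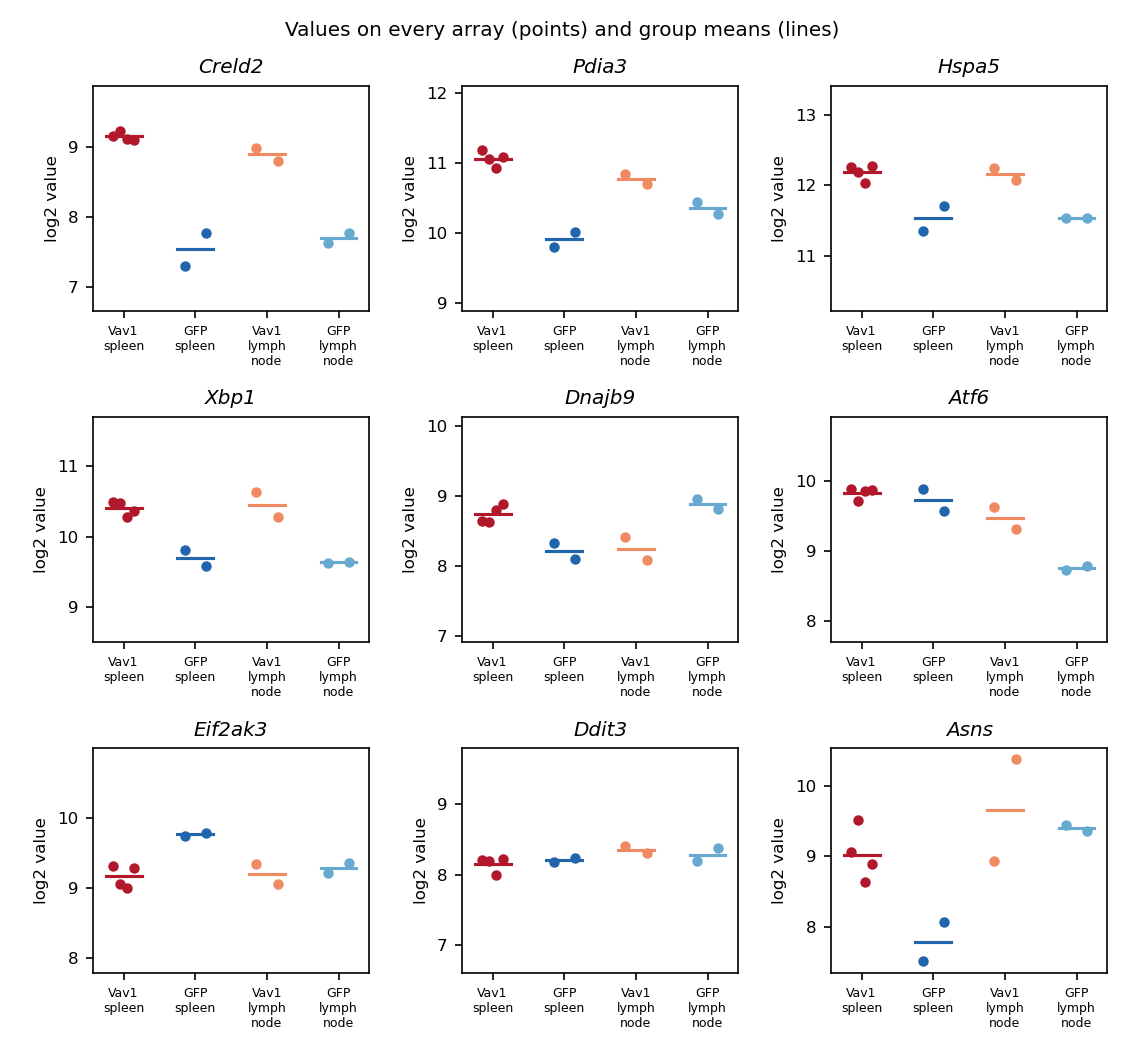
Log2 values of 9 of the genes on every array (points) with group means (lines), from left to right Vav1 spleen (4 arrays), GFP spleen (2), Vav1 lymph node (2) and GFP lymph node (2). Each panel has its own range of the same width, and the Creld2 panel shows every Vav1 array at 8.81 or above and every GFP array at 7.78 or below.

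The promoters of the set were searched because a defined element links them. The ER stress element, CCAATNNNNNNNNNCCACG, is bound by ATF6 and XBP1 with the factor NF-Y and was described on promoters of several of these genes, so its presence in them is background. RefSeq promoters of GRCm38.p6, from 250 bases before to 50 bases after the start, were held for 28 of the 32 genes. Matches were searched on both strands. Members were counted by gene, while the shares of all promoters count each promoter and include those of the members. The ER stress element occurred in 9 of the 28 (32.1%) and in 0.119% of all 32851 promoters of the table, and the second ER stress element, ATTGG and CCACG with 1 base between them, in 2 of the 28 (7.14%) and in 0.0365% of all. CCACG alone, which both elements contain, occurred in 22 of the 28 (78.6%) and in 32.8% of all. The XBP1 element TGACGTGG was in none of the 28 windows and in 0.676% of all. The 12 matches in 11 genes are shown because they are the sequence these members share, with the fixed bases in capitals and read 5′ to 3′ on the strand of the element.
Hspa5: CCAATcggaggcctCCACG
Hsp90b1: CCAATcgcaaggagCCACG
Hsp90b1: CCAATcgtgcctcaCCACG
Dnajb11: ATTGGcCCACG
Dnajc3: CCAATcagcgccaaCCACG
Calr: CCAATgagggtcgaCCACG
Canx: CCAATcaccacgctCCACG
Pdia6: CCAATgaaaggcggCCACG
Creld2: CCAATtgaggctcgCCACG
Herpud1: ATTGGgCCACG
Syvn1: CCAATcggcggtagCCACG
Derl3: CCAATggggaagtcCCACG
Of the 12 matches, 4 lay on the strand opposite to the gene, 11 began between 212 and 44 bases upstream of the start, and that of Dnajb11 began 7 bases downstream. Of the 11 genes, 9 rose in spleen and 5 in lymph node, against 17.1% and 7.87% of all genes. Of all 32 members, 19 and 10 rose, so these counts do not tie the rise to the element. Syvn1 and Herpud1 did not pass in either tissue.

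The windows of Creld2 (chr15:88819396-88819695, plus strand), Hspa5 (chr2:34771840-34772139, plus strand) and Hsp90b1 (chr10:86705395-86705694, minus strand) are given whole, on the strand of the gene with its ER stress elements in capitals, as those of the member with the largest difference and of the 2 main chaperones.
Creld2: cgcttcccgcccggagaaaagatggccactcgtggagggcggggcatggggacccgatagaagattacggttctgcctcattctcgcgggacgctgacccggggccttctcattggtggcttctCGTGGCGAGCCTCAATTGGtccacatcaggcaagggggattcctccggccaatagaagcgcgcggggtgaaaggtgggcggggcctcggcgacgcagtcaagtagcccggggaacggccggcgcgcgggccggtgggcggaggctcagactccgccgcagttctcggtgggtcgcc
Hspa5: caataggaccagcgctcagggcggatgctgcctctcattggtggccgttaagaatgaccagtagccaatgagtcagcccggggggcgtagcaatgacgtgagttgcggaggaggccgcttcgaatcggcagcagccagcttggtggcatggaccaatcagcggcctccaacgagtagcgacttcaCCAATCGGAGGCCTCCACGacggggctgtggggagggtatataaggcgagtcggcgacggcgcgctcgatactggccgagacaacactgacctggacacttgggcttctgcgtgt
Hsp90b1: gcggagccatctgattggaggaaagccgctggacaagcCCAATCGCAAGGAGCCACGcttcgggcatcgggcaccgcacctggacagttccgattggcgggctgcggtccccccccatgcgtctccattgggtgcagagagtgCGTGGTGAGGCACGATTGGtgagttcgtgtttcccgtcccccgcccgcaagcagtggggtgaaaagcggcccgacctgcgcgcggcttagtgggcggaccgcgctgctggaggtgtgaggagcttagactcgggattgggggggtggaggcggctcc
Creld2 carried its element on the opposite strand, Hspa5 on its own strand and Hsp90b1 a copy on each. The window of Creld2 shared 173 bases, its element among them, with that of Alg12, a mannosyltransferase gene on the other strand. Alg12 differed by -0.10 in spleen (SE 0.17, adjusted p = 0.68) and -0.39 in lymph node (SE 0.19, adjusted p = 0.20). Of the 14 tested genes outside the set with either element, Alg12 included, 3 rose and 3 fell in spleen and 3 fell in lymph node. Over all genes the shares were 17.1% up and 9.77% down in spleen, and 10.8% down in lymph node. A match in these windows is a description of the sequence and shows no binding.

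None of the 3 sensors passed as higher in the spleen, where 17.1% of all genes did. With 3 genes this cannot be told apart from that share. Eif2ak3, which encodes PERK, was at 9.32, 9.06, 9.00 and 9.28 on the Vav1 spleen arrays, against 9.74 and 9.79 on the GFP spleen arrays, and at 9.34 and 9.05 on the Vav1 lymph node arrays, against 9.22 and 9.36 on the GFP lymph node arrays. The Vav1 arrays were all lower in spleen and overlapped the GFP arrays in lymph node. Eif2ak3 was the single member that fell in spleen (-0.60, SE 0.13, adjusted p = 0.0094), where 9.77% of all genes fell. It differed by -0.09 in lymph node (adjusted p = 0.74). Without GFP spleen replicate 1 or 2 its adjusted p was 0.067 and 0.066.

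Atf6, the sensor that is itself cut into a transcription factor, was at 9.89, 9.71, 9.86 and 9.87 on the Vav1 spleen arrays, against 9.89 and 9.58 on the GFP spleen arrays. It was at 9.63 and 9.32 on the Vav1 lymph node arrays, against 8.73 and 8.79 on the GFP lymph node arrays. The groups overlapped in spleen (0.10, adjusted p = 0.59) and were apart in lymph node, where Atf6 rose (0.72, SE 0.15, adjusted p = 0.0089). Its adjusted p there was 0.08 without GFP lymph node replicate 1 and 0.062 without replicate 2. Ern1, which encodes IRE1, was at 8.50 to 8.64 on the Vav1 spleen arrays, against 8.76 and 8.71 on the GFP spleen arrays, and at 8.64 and 8.43 on the Vav1 lymph node arrays, against 8.43 and 8.46 on the GFP lymph node arrays. Its difference was -0.15 in spleen (adjusted p = 0.34) and 0.10 in lymph node (adjusted p = 0.67).

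Among the transcription factors, Xbp1 rose in both tissues and Ddit3 did not pass in either. Xbp1, whose spliced form encodes the factor that expands the ER of secretory cells, was at 10.49, 10.48, 10.28 and 10.37 on the Vav1 spleen arrays, against 9.81 and 9.58 on the GFP spleen arrays, and at 10.63 and 10.28 on the Vav1 lymph node arrays, against 9.62 and 9.64 on the GFP lymph node arrays. No Vav1 array reached down to a GFP array in either tissue. The difference was 0.71 in spleen (SE 0.13, adjusted p = 0.0038) and 0.82 in lymph node (SE 0.15, adjusted p = 0.0039). The spleen call was lost under the intronic control covariate (0.50, adjusted p = 0.14) and the lymph node call with the lymph node arrays alone (adjusted p = 0.10).

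Atf4, the factor of the amino acid and PERK branch, was at 10.27, 10.39, 10.37 and 10.00 on the Vav1 spleen arrays, against 9.91 and 9.87 on the GFP spleen arrays, and at 10.10 and 10.52 on the Vav1 lymph node arrays, against 9.72 and 9.81 on the GFP lymph node arrays. The Vav1 arrays were higher throughout, by little in Vav1 spleen replicate 4. The difference was 0.37 in spleen (SE 0.15, adjusted p = 0.087) and passed narrowly in lymph node at 0.55 (SE 0.17, adjusted p = 0.049). The spleen difference passed under 7 of 22 alternatives, among them without Vav1 lymph node replicate 1 or 2 (adjusted p = 0.017 each) and without Vav1 spleen replicate 4 (0.46, adjusted p = 0.046). The lymph node call was lost under 17 of the 22 alternatives, with adjusted p up to 0.24, among them each single array left out except Vav1 spleen replicate 4 and Vav1 lymph node replicate 1. Ddit3, which encodes CHOP, was at 8.20, 8.20, 8.00 and 8.23 on the Vav1 spleen arrays, against 8.19 and 8.24 on the GFP spleen arrays, and at 8.41 and 8.30 on the Vav1 lymph node arrays, against 8.19 and 8.38 on the GFP lymph node arrays. The groups overlapped in both tissues on this probe set, with differences of -0.06 (SE 0.12, adjusted p = 0.75) and 0.07 (SE 0.14, adjusted p = 0.77). On a second, lower Ddit3 probe set the Vav1 lymph node arrays (7.70 and 7.28) lay below the GFP arrays (7.86 and 7.84). In spleen no Vav1 array (7.46 to 7.72) lay above a GFP array (7.72 and 7.76) on it.

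Genes of ER-associated degradation, which carries misfolded proteins back to the cytosol, passed in part. In spleen 3 of 8 rose (37.5%, against 17.1% of all genes), with a median of 0.33. In lymph node 1 of 8 rose (12.5%, against 7.87% of all genes), with a median of 0.15. Derl3, a channel protein typical of secretory cells, was at 7.63, 7.48, 7.54 and 7.48 on the Vav1 spleen arrays, against 6.83 and 6.82 on the GFP spleen arrays, and at 7.30 and 7.15 on the Vav1 lymph node arrays, against 6.47 and 6.63 on the GFP lymph node arrays. The groups were clearly apart in both tissues, and Derl3 rose by 0.70 in spleen (SE 0.12, adjusted p = 0.0027) and 0.67 in lymph node (SE 0.14, adjusted p = 0.0074). Edem2, which trims mannose from misfolded glycoproteins, was at 9.37, 9.13, 9.18 and 9.08 on the Vav1 spleen arrays, against 8.56 and 8.42 on the GFP spleen arrays, and rose by 0.70 (SE 0.18, adjusted p = 0.019). Its lymph node values of 9.17 and 8.43 with Vav1 spanned those of 8.47 and 8.57 with GFP (0.28, adjusted p = 0.41).

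Derl1, a relative of Derl3 with broad expression, was at 9.47, 9.56, 9.63 and 9.33 on the Vav1 spleen arrays, against 9.19 and 9.00 on the GFP spleen arrays, and differed by 0.40 (SE 0.12, adjusted p = 0.032). In the lymph node it was at 9.37 and 9.42 with Vav1, against 9.61 and 9.48 with GFP (-0.15, adjusted p = 0.51). Its Vav1 arrays were higher in spleen and lower in lymph node, in both cases by a narrow gap. The other 5 did not pass in either tissue: the ubiquitin ligase gene Syvn1 differed by -0.41 in spleen and 0.28 in lymph node, its partner Sel1l by 0.28 and 0.13, Herpud1 by 0.33 and 0.11, Edem1 by 0.34 and 0.17, and Derl2 by 0.18 and 0.09. Syvn1 was at 9.02, 8.84, 8.88 and 8.95 on the Vav1 spleen arrays, against 9.43 and 9.22 on the GFP spleen arrays, and at 9.16 and 8.20 on the Vav1 lymph node arrays, against 8.36 and 8.44 on the GFP lymph node arrays. Its Vav1 arrays were lower in spleen and lay on either side of the GFP arrays in lymph node. With GFP spleen replicate 1 or 2 or Vav1 spleen replicate 1 left out, neither Edem2 nor Derl1 passed in spleen (adjusted p from 0.053 to 0.20), and Derl1 also missed the threshold without Vav1 spleen replicate 2 (adjusted p = 0.082) or 3 (adjusted p = 0.06) or either GFP lymph node replicate (adjusted p = 0.053). The lymph node call of Derl3 was lost without GFP lymph node replicate 1 (adjusted p = 0.078). Without Vav1 lymph node replicate 2, Herpud1, Syvn1, Edem1 and Edem2 passed as higher in lymph node (0.40 to 0.76, adjusted p from 0.0021 to 0.041), and without either Vav1 lymph node replicate Herpud1 and Edem1 passed as higher and Syvn1 as lower in spleen (adjusted p from 0.0073 to 0.014).

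The translocon, through which nascent proteins enter the ER, had 2 of 3 members higher in spleen and 1 of 3 in lymph node. Of all genes, 17.1% and 7.87% rose. Ssr1, a subunit of the translocon-associated complex, was at 10.76, 10.81, 10.61 and 10.71 on the Vav1 spleen arrays, against 10.07 and 10.00 on the GFP spleen arrays, and at 10.67 and 10.99 on the Vav1 lymph node arrays, against 10.33 and 10.25 on the GFP lymph node arrays. Every Vav1 array was above every GFP array. Ssr1 rose by 0.69 in spleen (SE 0.12, adjusted p = 0.0027), a call that held under all 22 alternatives, and by 0.54 in lymph node (SE 0.14, adjusted p = 0.019), which did not hold when GFP lymph node replicate 1 (adjusted p = 0.094) or replicate 2 (adjusted p = 0.14) was left out. Sec61a1, the pore of the channel, was at 11.19, 11.09, 11.04 and 11.18 on the Vav1 spleen arrays, against 10.54 and 10.39 on the GFP spleen arrays (0.66, SE 0.15, adjusted p = 0.0098), and at 11.21 and 10.62 on the Vav1 lymph node arrays, against 10.74 and 10.77 on the GFP lymph node arrays (0.16, adjusted p = 0.59). Without GFP spleen replicate 1 or 2 its spleen adjusted p was 0.056 and 0.082. Sec61b, a small subunit, ran from 8.32 to 8.54 on the Vav1 spleen arrays, against 8.14 and 8.23 on the GFP spleen arrays, and did not pass (0.27, adjusted p = 0.31). In lymph node Sec61b was at 8.79 and 7.96 with Vav1, on either side of 8.26 and 8.24 with GFP (0.12, adjusted p = 0.76). Sec61a1 and Sec61b passed in lymph node without Vav1 lymph node replicate 2 (0.45 and 0.53, adjusted p = 0.014 and 0.022).

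Of the targets of ATF4 and CHOP, Asns, the asparagine synthetase gene, rose in spleen and the others did not. Asns was at 9.06, 9.52, 8.63 and 8.89 on the Vav1 spleen arrays, against 7.51 and 8.06 on the GFP spleen arrays, and at 8.94 and 10.38 on the Vav1 lymph node arrays, against 9.44 and 9.36 on the GFP lymph node arrays. The spleen groups were apart, and the Vav1 lymph node replicates lay on either side of the GFP arrays. The difference was 1.24 in spleen (SE 0.36, adjusted p = 0.028), or 2.36-fold, and 0.26 in lymph node (SE 0.41, adjusted p = 0.73). Leaving out GFP spleen replicate 1 gave a spleen adjusted p of 0.22, GFP spleen replicate 2 or Vav1 spleen replicate 1 one of 0.063, and Vav1 spleen replicate 2 one of 0.066, and in lymph node it passed without Vav1 lymph node replicate 1 (0.98, adjusted p = 0.018). Trib3, a pseudokinase that dampens ATF4 and CHOP, was low throughout, at 6.18 to 6.34 on the Vav1 spleen arrays, against 6.33 and 6.39 on the GFP spleen arrays (-0.10, adjusted p = 0.60), and at 6.22 and 6.52 on the Vav1 lymph node arrays, against 6.51 and 6.49 on the GFP lymph node arrays (-0.13, adjusted p = 0.63). Chac1, a glutathione-degrading enzyme, was at 5.54 to 6.00 on the Vav1 spleen arrays, against 5.89 and 5.57 on the GFP spleen arrays, and at 5.90 and 5.62 on the Vav1 lymph node arrays, against 5.38 and 5.78 on the GFP lymph node arrays. It lay near background in both GFP groups, meaning that the group mean was below the 40th percentile of its arrays, and did not pass (0.10, adjusted p = 0.71 in spleen and 0.18, adjusted p = 0.63 in lymph node).

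The difference between the construct effects of the tissues was tested directly, as the lymph node effect minus the spleen effect with the animal as a random block. It passed for 2 of the 32 genes, both lower in lymph node, against 7.11% of all genes for that direction, 0.933% for the other and 8.04% for either. Dnajb9 had -0.64 in lymph node and 0.52 in spleen, an interaction of -1.17 (SE 0.22, adjusted p = 0.0083). Pdia3 had 0.42 in lymph node and 1.15 in spleen, an interaction of -0.74 (SE 0.19, adjusted p = 0.038). Dnajb9 kept the call under 21 of 22 alternatives and missed it without GFP lymph node replicate 1 (adjusted p = 0.062), and Pdia3 missed it under 12 of 22, among them each GFP array and Vav1 spleen replicates 1, 2 and 4 left out in turn (adjusted p from 0.051 to 0.19). No other member passed: Atf6 had 0.60 (adjusted p = 0.10), Derl1 -0.55 (adjusted p = 0.10) and Asns -0.97 (adjusted p = 0.29). The number that passed was 7 without Vav1 lymph node replicate 1 and 6 without replicate 2, against 29.2% and 13.5% of all genes under those settings. The level in lymph node over spleen, averaged over constructs, was higher for Asns (1.12, SE 0.27, adjusted p = 0.024) and lower for Atf6 (-0.66, SE 0.10, adjusted p = 0.0023), 1 of 32 each, against 7.1% and 3.11% of all genes. The Atf6 call held under all 22 alternatives, and the Asns call was lost without GFP spleen replicate 1 (adjusted p = 0.11), Vav1 spleen replicate 4 (0.057), GFP lymph node replicate 1 (0.11) or GFP lymph node replicate 2 (0.083).

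Further genes of the secretory pathway were read from lists that hold no member of the set. Of 131 such genes tested, 55 rose and 5 fell in spleen, with a median of 0.34, and 20 rose and 4 fell in lymph node, with a median of 0.12. The shares that rose were 42% in spleen and 15.3% in lymph node, against 17.1% and 7.87% of all genes, with which the counts of each list below are to be read. ER-to-Golgi transport had 14 of 24 up in spleen (58.3%) and 1 of 24 in lymph node (4.17%, below the share of all genes), the cargo receptor gene Lman1, at 0.79 in spleen (adjusted p = 0.002) and 0.73 in lymph node (adjusted p = 0.0066). Translocation and N-glycosylation had 15 of 29 up in spleen and 6 of 29 in lymph node. Rpn1 of the oligosaccharyltransferase was at 1.07 in spleen (adjusted p = 0.00028) and 0.42 in lymph node (adjusted p = 0.046). Ssr3, a partner of Ssr1, was at 1.01 in spleen (adjusted p = 0.00028) and 0.41 in lymph node (adjusted p = 0.037). ER folding and redox had 11 up and 1 down of 25 in spleen and 4 up and 1 down in lymph node. The prolyl isomerase gene Fkbp2 rose by 1.11 in spleen (adjusted p = 0.00028) and the thioredoxin-domain gene Txndc5 by 1.03 in spleen (adjusted p = 0.0014) and 1.19 in lymph node (adjusted p = 0.0011), while the oxidase gene Ero1b fell in spleen (-0.74, adjusted p = 0.012).

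Other genes of degradation and quality control had 4 of 18 up in spleen (22.2%) and 1 of 18 in lymph node (5.56%), near the shares of all genes, and the extracting ATPase gene Vcp rose by 0.97 in spleen (adjusted p = 0.00078). Stress signalling genes and further ATF4 targets had 11 up and 4 down of 35 in spleen and 8 up and 3 down in lymph node. Among these the amino acid transporter gene Slc7a5 rose by 1.61 in spleen (adjusted p = 0.00054) and 1.81 in lymph node (adjusted p = 0.00037). The serine synthesis gene Psat1 rose by 1.36 in spleen (adjusted p = 0.00046) and 0.64 in lymph node (adjusted p = 0.032). Shmt2, the mitochondrial serine hydroxymethyltransferase, rose by 0.91 in spleen (adjusted p = 0.0013) and 1.16 in lymph node (adjusted p = 0.00057). The lipoprotein receptor gene Vldlr fell in lymph node (-1.56, adjusted p = 0.00031). Without GFP spleen replicate 1, 20 of the 131 rose in spleen, against 5.74% of all genes, and 13 with the intronic control covariate, against 4.56%. Without GFP lymph node replicate 1 or 2, 5 of the 131 rose in lymph node, near the 2.87% and 2.86% of all genes, and 32 without Vav1 lymph node replicate 1, against 14.6%.

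**Figure D3:**
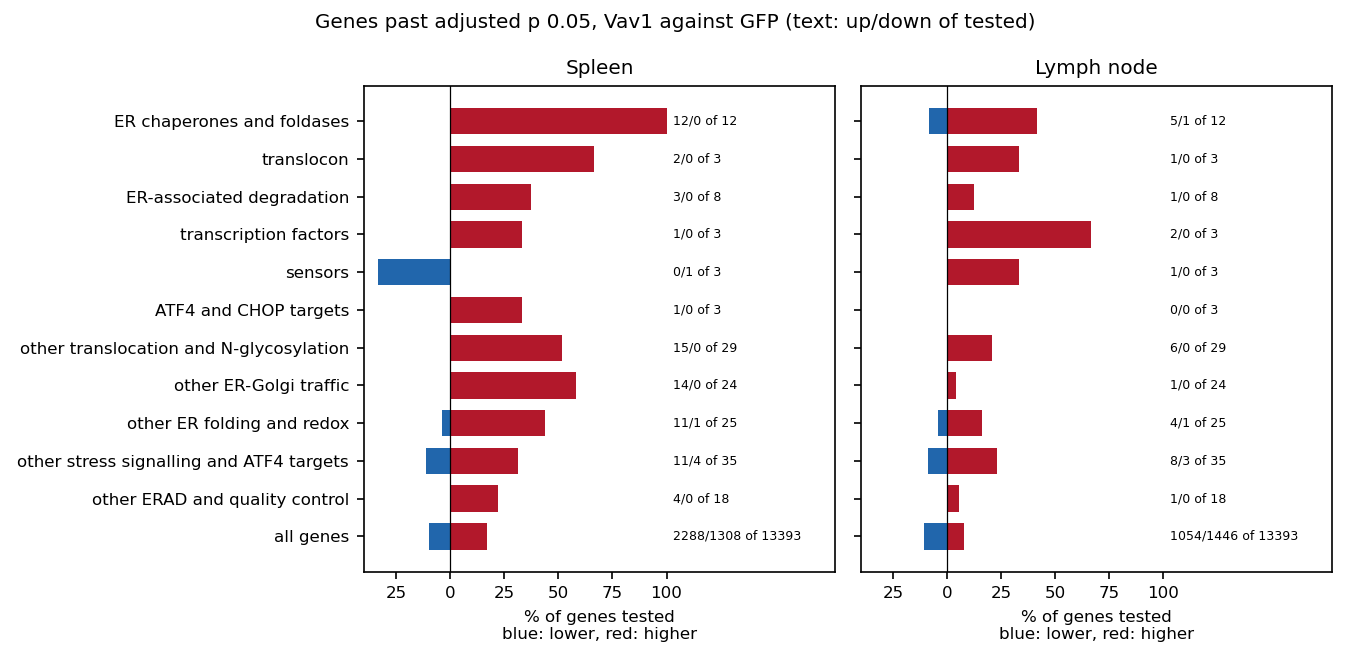
Share of the tested genes of each list that were higher (right of 0) or lower (left of 0) with Vav1 at a limma adjusted p under 0.05, in spleen and lymph node, with the numbers up and down of those tested beside each bar. The chaperones stand at 12 of 12 higher in spleen and 5 of 12 in lymph node, and all genes are the bottom bar.

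Plasma cells hold much ER, and the mean of their markers was also higher on the Vav1 arrays, though not every marker was. The plasma cell list without ER genes averaged 8.01 to 8.12 on the Vav1 spleen arrays, against 7.77 and 7.80 on the GFP spleen arrays, and 7.99 and 7.87 on the Vav1 lymph node arrays, against 7.16 and 7.31 on the GFP lymph node arrays. Of its 7 genes tested, 3 rose and 1 fell in spleen and 3 rose in lymph node. Of all genes, 17.1% rose in spleen and 7.87% in lymph node. The 1 that fell was Irf4 (-0.47, adjusted p = 0.024), a call lost under 8 of 22 alternatives. Sdc1, among the 3 that rose in spleen (0.54, adjusted p = 0.049), lost that call under 10 of 22. Its lymph node call (0.73, adjusted p = 0.036) was lost under 8 of 22. In spleen Tent5c differed by -0.29 (adjusted p = 0.23) and Pou2af1 by 0.10 (adjusted p = 0.83). Jchain, the joining chain of secreted antibodies, differed by 0.51 in spleen (adjusted p = 0.16) and 2.29 in lymph node (adjusted p = 0.00055). Prdm1, the plasma cell factor that activated T cells also express, differed by 1.41 in spleen (adjusted p = 0.0045; 0.97, adjusted p = 0.071 without GFP spleen replicate 1) and 0.73 in lymph node (adjusted p = 0.14). The GFP spleen arrays held Prdm1 at 5.09 and 5.97, a mean below the 40th percentile of those arrays, so the size of its spleen difference is against a group near background. Jchain lay at or above percentile 84.0 of every array, while Tnfrsf17 and Eaf2, receptor and factor genes of plasma cells, were too low to be tested. The part of plasma cell and cycling cell transcripts in the ER results was not tested.

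**Figure D4:**
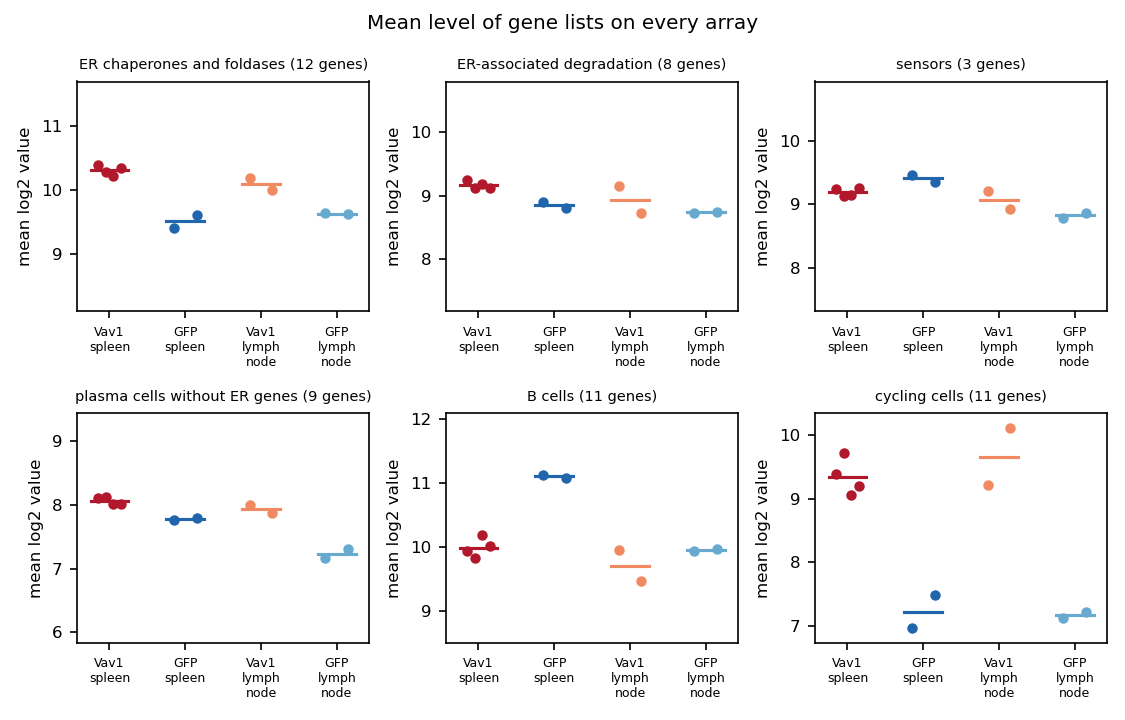
Mean log2 level of 3 role lists of the set (top) and of plasma cell markers without ER genes, B cell markers and cycling-cell genes (bottom) on every array, with lines at the group means and the same groups from left to right. The chaperone mean was 10.2 to 10.4 on the Vav1 spleen arrays and 9.41 and 9.61 on the GFP spleen arrays, and 10.2 and 9.99 on the Vav1 lymph node arrays and 9.63 and 9.62 on the GFP lymph node arrays.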

How the data were processed

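The arrays were Affymetrix single-colour arrays of total RNA extracted with Trizol, per the labels' protocols. The deposited values are log2 values from RMA, which the authors ran in R 3.6.3 as the submitters' processing notes record, and were used as deposited. The version of the annotation behind RMA is not given in the sources used here. Of 29129 probe sets, 19572 carried 1 gene symbol in GEO's platform annotation and stood for 19505 genes. For the 55 genes with several, the probe set with the highest mean was taken (Ddit3 among the members). Genes entered the test when at least 2 arrays had them over that array's 40th percentile (13393 genes). limma 3.58.1 in R 4.3.3 was fitted to all 10 arrays as 4 groups with a variance trend (6 residual degrees of freedom), with two-sided tests and Benjamini-Hochberg adjustment over all genes tested. The interaction and the tissue comparison had the animal as a random block (statmod 1.5.0, estimated correlation -0.11). The number of arrays limits the precision.

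The members and lists were chosen with earlier results of these data known. Values are given per array for up to 3 genes of each role with the smallest p in either tissue and for every sensor and transcription factor, and for Dnajb9, chosen after its values were seen. Of the further lists, up to 4 genes with the smallest p per comparison were eligible to be named, and Ero1b, Alg12 and the genes called under an alternative were named after their values were seen. Alternatives changed the filter, the normalization, the variance model, the array weights, the probe set rule, a fold threshold, the intronic control covariate, the blocks and the arrays included. Replicate numbers in the titles mark the same animal neither across constructs nor across tissues, so they do not pair samples.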

Additional observations from a re-analysis of the deposited data

Results flagged for a closer look

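Ddit3 on the Vav1 spleen arrays had a replicate far from the others. Replicate 3 was at 8.00, while the other Vav1 spleen arrays lay between 8.20 and 8.23, a gap of 0.882 of the whole range. It was the single such case among the 32 genes in that group, and chance gives about 1 in 20. No other group had enough arrays for the check. On a second Ddit3 probe set, replicate 3 was the highest Vav1 spleen array, at 7.72, with the others at 7.51, 7.62 and 7.46. The GFP spleen arrays were at 7.72 and 7.76 on it.

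The effect of Vav1 on Dnajb9 differed between the tissues in the test of that difference, lymph node minus spleen (-1.17, limma adjusted p = 0.0083). That on Pdia3 differed as well (-0.74, limma adjusted p = 0.038), though this call was lost under 12 of 22 alternatives. These were 2 of the 32 genes, and the test passed for 8.04% of all genes. The cause was not tested for either.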

How the results depend on the processing

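Over 24 alternatives, 1448 values of the genes were compared: 1235 kept direction and side of the threshold, 136 lost the call and 50 gained one. The other 27 changed sign without passing in either fit (lowest adjusted p 0.16), 9 of them in lymph node without Vav1 lymph node replicate 1. The 19 higher in spleen became 3 with the intronic control covariate, and the 1 lower became 2 with array weights, without the animal ONCO3 or with spleen arrays alone. In lymph node the 10 higher became 4 with array weights and 1 with lymph node arrays alone, where 4.02% and 0.851% of all genes rose. The 1 lower became 0 under both. Without ONCO3, which left 1 Vav1 lymph node array, the lymph node median of the 32 was 0.43. The 2 interactions became 1 with renewed quantile normalization, no variance trend, array weights or the replicate block, and 8 without ONCO3. For lymph node over spleen, the 1 lower became 2 with quantile normalization, array weights or no animal block. It became 9 with the covariate, where 1623 of all 13393 genes were lower. With single arrays left out, the counts ranged from 5 to 22 higher and 0 to 2 lower in spleen, 3 to 17 higher and 0 to 1 lower in lymph node, 0 to 7 interactions, and 0 to 2 higher and 1 to 11 lower in lymph node over spleen. Counts over all genes moved with the arrays included as well, so these ranges do not describe the 32 genes alone. With any 1 Vav1 spleen replicate left out, 14 to 18 of the 32 rose in spleen, against 12% to 16.2% of all genes. Leaving out ONCO3, a GFP array or a lymph node array left 1 array in a group, so no conclusion is drawn from those counts. With single arrays left out, the median of the 32 stayed at 0.50 to 0.59 in spleen and 0.195 to 0.43 in lymph node. The cause was not tested.

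With the replicate block, 15 rose and 1 fell in spleen and 7 rose and 1 fell in lymph node. In that setting 13.8% and 6.71% of all genes rose, and 20% and 15.9% passed in either direction. Deviations of same-numbered samples correlated at 0.04 and 0.30 in spleen and -0.06 in lymph node. Over all genes, higher calls in spleen numbered 2288, against 611 with the covariate, 3558 without ONCO3, and 766 or 1371 with GFP spleen replicate 1 or 2 left out. In lymph node they numbered 1054, against 114 with lymph node arrays alone and 1938 without Vav1 lymph node replicate 1. Lower calls ranged from 305 to 2294 around 1308 in spleen and from 319 to 2713 around 1446 in lymph node. The share of higher among spleen calls was 63.6%, and 79.8% when arrays were centred on their medians, where all genes had a median of 0.108 and the 32 one of 0.66, with 21 higher.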

Other observations

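Genes outside the set with either ER stress element in their RefSeq window gave 3 that rose in spleen. These were Lgalsl at 0.73, Nucb1, an EF-hand protein gene, at 0.87, and Rcl1, a ribosomal RNA processing gene, at 0.55. Another 3 fell there: Ero1b at -0.74, Lrif1 at -0.57 and Pan2 at -0.39. Of all genes, 17.1% rose and 9.77% fell in spleen. The 3 that rose carried the second element. Of the 8 tested with the first element, 0 rose and 2 fell in spleen. The median of the 14 such genes tested was -0.23 in spleen and -0.06 in lymph node. Among the 11 members with an element it was 0.68 in spleen and 0.46 in lymph node. The window of Calr shared 285 bases with that of 1700122E12Rik.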
